A study of Homo sapiens with 6 samples.

Results

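The peaks described here are those that RNA immunoprecipitation of DDX5 left near the 3' ends of messenger RNAs in RH30 cells. Per the labels, RH30 is an established alveolar rhabdomyosarcoma cell line, positive for the PAX3-FOXO1 gene fusion. All 6 samples are nuclear RNA of this line. For 3 of them DDX5 was pulled down with an antibody, the other 3 are INPUT with none, and the series calls them biological replicates. One peak list for each of the 3 immunoprecipitates was used, and INPUT files were not analysed here. A peak was taken when its summit lay in the 3' UTR of the canonical transcript of a protein-coding gene, more than 300 spliced nt after the stop codon and at most 300 spliced nt before the transcript end. This stretch is called the end zone, and only 3' UTRs of over 300 nt have one. Each interval was represented by its summit with the highest −log10 q, and the rule then used position alone. It took 2246, 1495 and 2229 peaks in replicates 1, 2 and 3, 5970 in all, out of 23715, 23651 and 45832 peaks. These were 22.9%, 22.1% and 20.2% of the 3' UTR peaks, a mean of 21.8% ± 1.39 (SD, n = 3). They are set against the peaks at most 300 nt after the stop codon (the stop zone) and those over 300 nt from both (the middle zone).

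DDX5 is a DEAD-box RNA helicase that unwinds short RNA duplexes and takes part in splicing, microRNA processing and transcription. The 3' end of most messenger RNAs is made by cleavage of the nascent transcript, a short way after a polyadenylation signal (AATAAA, or its commonest variant ATTAAA), and the addition of a poly(A) tail. The last part of a 3' UTR therefore holds the signal that places the end, besides sites for microRNAs and for proteins that act on stability and localisation.

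The annotated ends carried the signal of a polyadenylation site. Of the 3413 3' UTRs with an end-zone peak in at least 1 list, 71.9% had AATAAA and a further 15.2% had ATTAAA within the last 50 nt. Among all 15454 3' UTRs of over 300 nt these shares were 66.7% and 14.7%. The signal ended 17 nt before the transcript end in the median of either set. For 5 of the highest-ranked genes described below, the 30 bases around the signal (in capitals) and the 30 bases around the summit of the list with the highest −log10 q (summit base in capitals) are shown to place both within the end zone. They are read from GENCODE transcripts on the transcript strand, and matched the GRCh38 genome.
SELENON signal, chr1:25818189-25818218, plus strand: aacatgccctgtAATAAAattagagaagac
SELENON summit, chr1:25818086-25818115, plus strand: gatgcctctgcagtTcatgtcccccaccag
CIC signal, chr19:42295766-42295795, plus strand: gcaatgagcgagATTAAAgctgtttaacac
CIC summit, chr19:42295629-42295658, plus strand: agggttttctcctcAccccctctgccctcc
NF2 signal, chr22:29698564-29698593, plus strand: aatgattgttttAATAAAaattctaagctg
NF2 summit, chr22:29698349-29698378, plus strand: gggcctcaccacccCtggagggagcagcgt
ENTREP3 signal, chr1:155247222-155247251, minus strand: atgtaagccttcAATAAAtttcagttttcc
ENTREP3 summit, chr1:155247318-155247347, minus strand: acctctagctgcatGaccttgggcaagcta
PLXNA1 signal, chr3:127037334-127037363, plus strand: ttagtacttgtaAATAAAcacacacattaa
PLXNA1 summit, chr3:127037226-127037255, plus strand: ggcgggcaccctcaGccgggctctttgcag
The signals of these 5 genes ended 13 to 38 nt before the transcript end, and the summits shown lay 121 to 235 nt before it. The bases around the signals held 20% to 40% G or C, and those around the summits held 53.3% to 73.3%. The former include the A and T of the signal by choice, so this contrast was partly fixed beforehand. The end zones of these 5 genes held 46.4% to 60.9%. The SELENON summit stretch, at 60%, lay below its zone.

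Within the end zone the summits were not spread evenly. They crowded into a band about 100 nt before the transcript end, and the last 50 nt held almost none. The median summit lay 136, 143 and 135 nt before the end in replicates 1, 2 and 3, a mean of 138 ± 4.36 nt (SD, n = 3). The fullest 10-nt bin lay at 100 to 109 nt in replicate 1, at 120 to 129 nt in replicate 2 and at 90 to 99 nt in replicate 3. The stretch from 100 to 150 nt (150 itself not counted, as in all such 50-nt stretches) held 42.4%, 42.2% and 36.4% of the end-zone summits, a mean of 40.3% ± 3.41 (SD, n = 3). The last 50 nt held 11, 11 and 18 summits, or 0.678% ± 0.167 (SD, n = 3). In UTRs of over 600 nt, where the whole zone exists, an even spread would put 16.6% into any 50 nt. This band was noticed in the data, and no test was made of it.

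**Figure D1:**
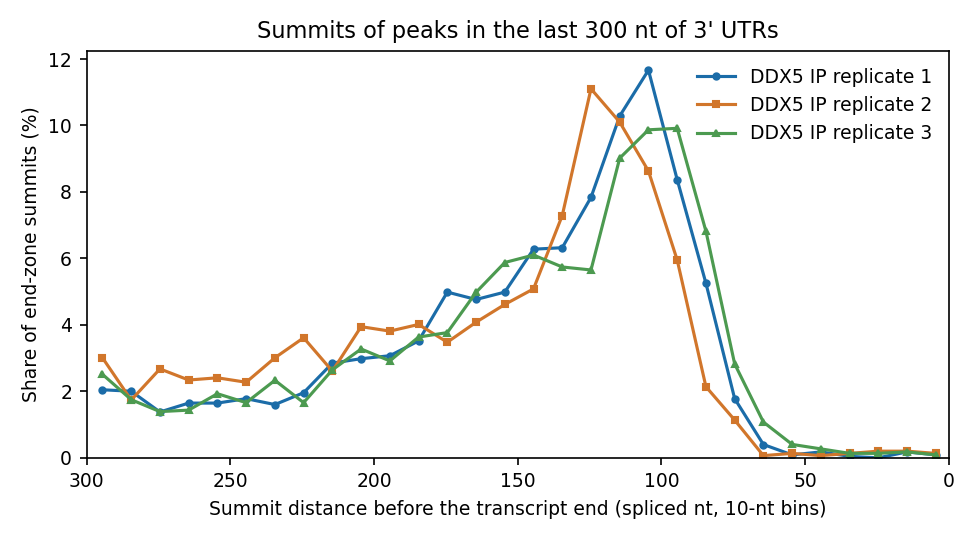
Share of end-zone summits (%) in 10-nt bins by spliced distance before the transcript end, 1 line for each DDX5 immunoprecipitate. Each line is highest between 90 and 129 nt and close to 0 within the last 50 nt, and replicate 2 has its maximum farthest from the end.

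The intervals themselves stopped short of the transcript end. The edge nearest the end lay a median of 64, 66 and 57 nt before it in replicates 1, 2 and 3, with the middle 50% of edges between 48.7 ± 4.93 and 78.8 ± 6.75 nt (SD, n = 3). In 82.9% ± 2.87 of end-zone peaks this edge lay within the last 100 nt, and in 2.03% ± 0.716 it ran past the annotated end (SD, n = 3). The intervals were 197, 244 and 252 bp wide in the median.

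The band was fuller at ends with a polyadenylation signal. With AATAAA or ATTAAA in the last 50 nt of the transcript, 41.4% ± 3.43 of the end-zone summits lay 100 to 150 nt before the end, and without either 32.3% ± 2.96 did (SD, n = 3). The difference of 9.10 ± 1.36 percentage points (SD, n = 3) had the same direction in 3 of 3 lists. It is given with no test, because the band was chosen from these same summits. In end zones with a GC content of 50% or more the median summit lay 115 ± 5.51 nt before the end, against 158 ± 9.36 nt below 40% (SD, n = 3).

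Middle-zone summits were also counted by their distance to other annotated ends. Of the middle-zone summits, 9.93% ± 0.467 (SD, n = 3) lay within 300 nt upstream of the end of another protein-coding transcript of the same gene. Of these, 25.8% ± 2.12 lay 100 to 150 nt before that other end and 14.1% ± 1.14 within its last 50 nt (SD, n = 3). At the canonical ends those shares were 40.3% and 0.678%. The distance was taken to the nearest such end, and no share for evenly spread summits was worked out. The values therefore do not show a band at the other ends. Whether the other ends are used in RH30 is not known from these files.

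Per unit of sequence, the end zone held more summits than either other part of the 3' UTR. Among UTRs of over 600 nt with a peak in the list (4221, 3452 and 4730), it held 1.59, 1.32 and 1.39 summits per kb in replicates 1, 2 and 3. The middle zone held 0.556, 0.453 and 0.574, and the stop zone 0.891, 0.759 and 1.106. The log2 ratio of end to middle zone was 1.44 ± 0.15 and that of end to stop zone 0.65 ± 0.28 (SD, n = 3). Both were positive in 3 of 3 lists. They are given with no test, because the rule used summit position and the peak class was chosen with earlier results known. In UTRs of over 2000 nt the density reached 2.90, 2.35 and 2.14 summits per kb at 100 to 150 nt before the end, and was 0.0488, 0.0867 and 0.0533 in the last 50 nt. By 300 to 350 nt before the end it was 0.626, 0.732 and 0.617. No such maximum stood behind the stop codon, where the first 50 nt held 1.02, 0.597 and 1.26 summits per kb.

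**Figure D2:**
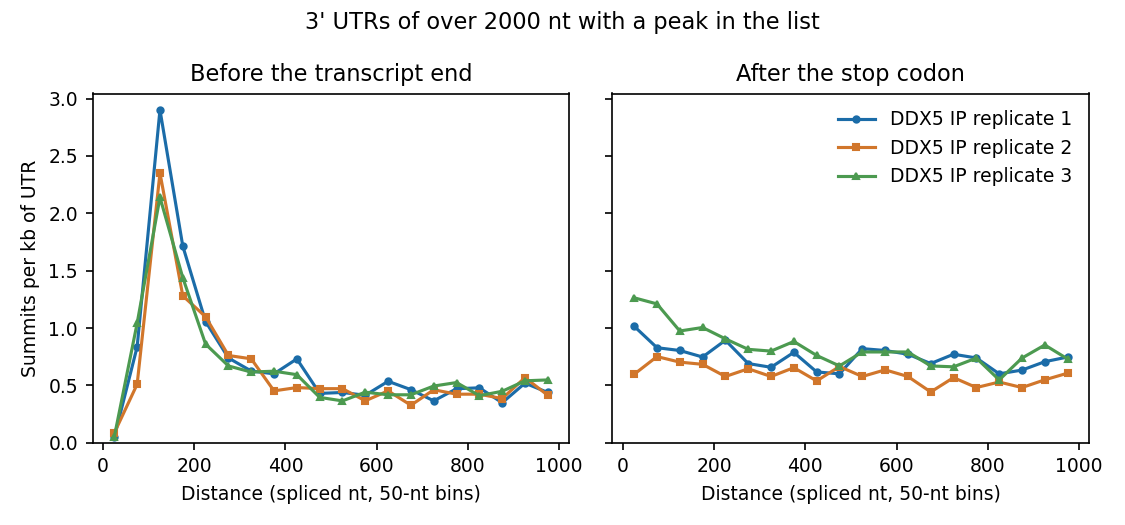
Summits per kb in 50-nt bins of spliced distance before the transcript end (left) and after the stop codon (right), in 3' UTRs of over 2000 nt with a peak in the list, 1 line for each DDX5 immunoprecipitate. A maximum of 2.14 to 2.90 stands at 100 to 150 nt before the end in the 3 lists, and the values after the stop codon stay at or below 1.26.

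At both limits of the zone the side inside it held more summits than the side outside it in 3 of 3 lists, and no test was made of this. In the 20 nt just inside the limit of 300 nt before the end there were 88, 69 and 94 summits, with median fold enrichments of 2.40, 3.00 and 2.63. In the 20 nt just outside there were 67, 56 and 87, with medians of 2.61, 2.59 and 2.63. In the first 20 nt past the limit after the stop codon there were 33, 23 and 38 end-zone summits, with medians of 2.43, 2.67 and 3.07. In the 20 nt before that limit, and also within 300 nt of the end, there were 22, 20 and 36, with medians of 2.89, 2.59 and 3.24.

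The median end-zone peak was slightly higher than the median middle-zone peak of each list, while within single UTRs the lists differed in direction. Fold enrichment is the authors' ratio of a peak over the peak caller's background. The control behind it is not given in the sources used here, so it cannot be read as enrichment over INPUT. Its median was 2.72, 3.07 and 3.00 in the end zone and 2.56, 2.92 and 2.73 in the middle zone. The log2 ratio of these medians was 0.099 ± 0.031 (SD, n = 3), positive in 3 of 3 lists (exact two-sided sign-flip permutation test, p = 0.25, the smallest possible). In each list many peaks carry an identical pair of fold and p. Pairs that occur at least 10 times made up 50.7% ± 8.18 of end-zone peaks (SD, n = 3), and without them the log2 ratio was 0.0385, with 1 of the 3 lists negative. In the 979, 592 and 941 UTRs that held peaks in both zones, the median log2 ratio was 0.023, −0.020 and −0.039, with the end zone higher in 53.0%, 48.0% and 46.8% of them (mean −0.012 ± 0.032, SD, n = 3; exact sign-flip permutation test, p = 0.75). The highest fold enrichments in the end zone were 11.0, 9.94 and 14.3. The stop zone had medians of 2.56, 2.98 and 2.83.

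Height also changed along the end zone. Peaks with summits 50 to 150 nt before the end had median fold enrichments of 2.93, 3.29 and 3.25, and those 150 nt or more before it had 2.51, 2.87 and 2.66. The log2 ratio was 0.24 ± 0.048 (SD, n = 3), in the same direction in 3 of 3 lists. The 50-nt limits were chosen after the values were seen, so no test is given. Zones with a GC content of 50% or more had nearer summits (median 115 nt) and higher median folds (3.59). Zones below 40% had medians of 158 nt and 2.57. Distance and GC content were not separated here.

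In each list a larger share of end-zone peaks than of middle-zone peaks recurred in the other lists. A peak was counted as recurring when it shared at least 1 bp with a peak of both other lists. This held for 45.7%, 64.5% and 41.1% of end-zone peaks, against 39.7%, 54.8% and 33.0% of middle-zone peaks and 44.6%, 63.6% and 31.2% of stop-zone peaks. The end-zone share was higher than the middle-zone share by a mean of 7.93 percentage points. Recurring peaks of the 3 lists are largely the same places, so the 3 differences are not independent and are given with no test. With fold enrichments of at least 4 the difference was −0.0568 percentage points. Recurring end-zone peaks had 44.8% ± 3.79 of their summits at 100 to 150 nt before the end, and the others 34.9% ± 3.84 (SD, n = 3).

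**Figure D3:**
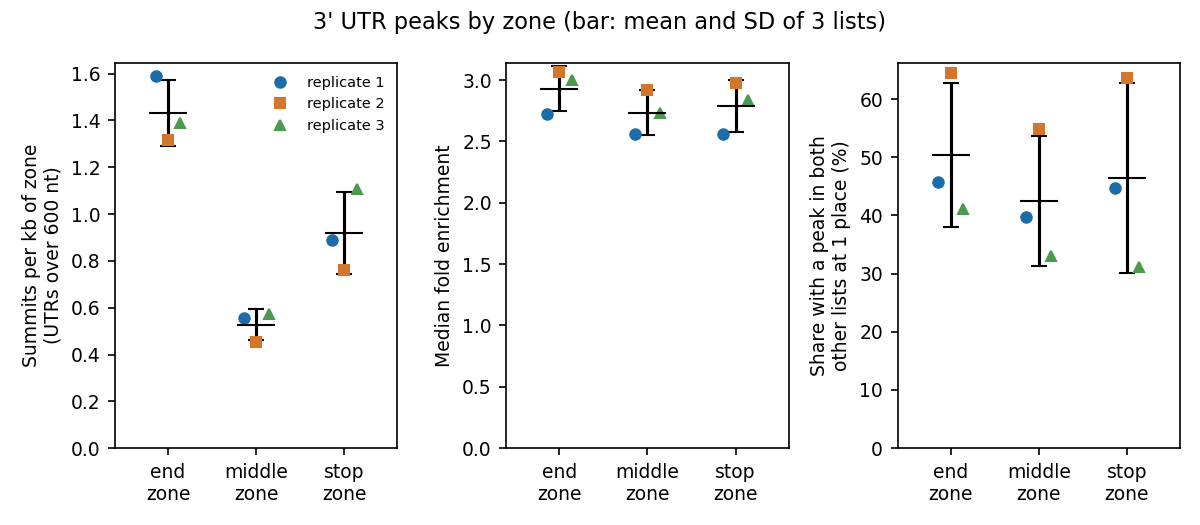
Summits per kb of zone, median fold enrichment and share of peaks recurring in both other lists (%), for the end, middle and stop zones. Points are the 3 DDX5 immunoprecipitates, and black bars are their mean and SD. The end zone has the highest density in every list, at 1.32 to 1.59 summits per kb, while the medians of fold differ little between zones.

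End zones that held a peak had a higher GC content than those that did not. Among UTRs of over 600 nt with any 3' UTR peak in the list, the median end zone with a peak had a GC content of 41.2%, 41.2% and 43.2% in replicates 1, 2 and 3. Where the peaks lay only elsewhere in the UTR it was 35.9%, 36.5% and 35.9%. The difference was 5.76 ± 1.38 percentage points (SD, n = 3), in 3 of 3 lists (exact two-sided sign-flip permutation test, p = 0.25). These UTRs were not matched on length. The median UTR was 1577 nt long for end-zone peaks and 3940 nt for middle-zone peaks, as means of the lists. Over all 15454 UTRs of over 300 nt, an end-zone peak was found in 6.07% ± 1.51 of zones with a GC content below 30%, in 10.5% ± 2.02 from 30% to 40%, in 16.9% ± 3.13 from 40% to 50%, in 20.8% ± 5.58 from 50% to 60% and in 15.9% ± 7.55 from 60% (SD, n = 3). The last class held 477 UTRs, and its share was 15.7%, 8.39% and 23.5% in replicates 1, 2 and 3. The median fold enrichment of end-zone peaks was 2.57 ± 0.141 in zones below 40%, 2.94 ± 0.219 from 40% to 50% and 3.59 ± 0.300 from 50% (SD, n = 3), and the part of GC content in the calls was not tested.

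**Figure D4:**
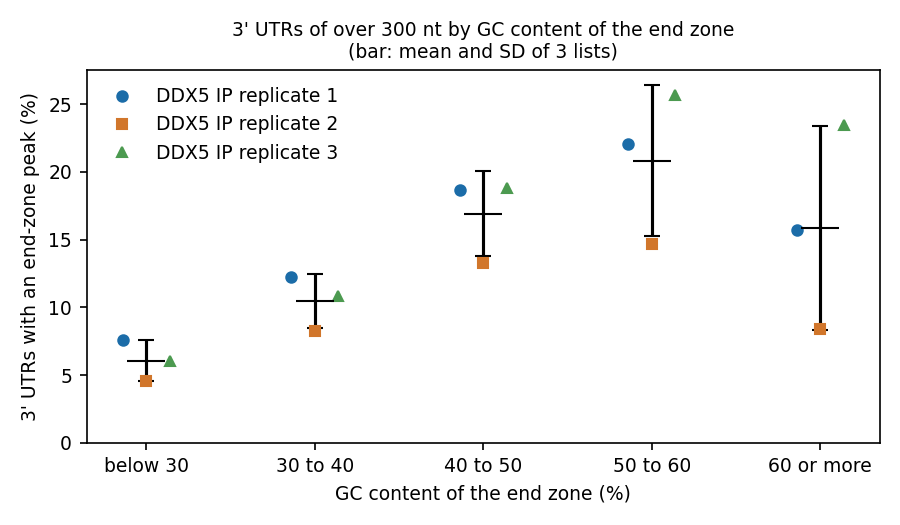
Share of 3' UTRs of over 300 nt with an end-zone peak (%) by GC content of the end zone (%). Points are the 3 DDX5 immunoprecipitates, and black bars are their mean and SD. The mean share is 6.07% in the class below 30%, 20.8% from 50% to 60% and 15.9% in the highest class, where the lists spread widely.

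At the summits themselves the sequence was richer in G and C than the zone around them. In the 50 nt on each side of a summit the GC content averaged 45.7% ± 0.567, against 42.9% ± 0.863 over all positions of the same end zones (SD, n = 3). The difference was 2.74 ± 0.388 percentage points (SD, n = 3), positive in 3 of 3 lists. GC content changes with distance from the end and few summits lie in the last 50 nt. This value therefore rests partly on position and is given with no test. Over the 3044 UTRs of over 600 nt with an end-zone peak, the mean GC content in such windows was 33.8% at 40 nt before the end and 45.3% at 240 nt. In these UTRs the summits exceeded their zones by 2.54 ± 0.440 percentage points. The mean profile at the same distances exceeded its own mean by 1.71 ± 0.286, which left 0.833 ± 0.203 (SD, n = 3; exact sign-flip permutation test, p = 0.25). In windows of 100 nt on each side the difference of 2.74 became 0.298 percentage points.

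Motifs were searched as exact letters on the transcript strand in the same windows. AATAAA or ATTAAA stood in 8.27% ± 0.684 of the windows at end-zone summits, against 29.2% ± 0.660 of windows at all positions of the same zones and 35.3% over all 15454 end zones. The difference was −20.9 ± 1.27 percentage points (SD, n = 3). The signal ended a median of 17 nt before the end and few windows at the summits reach that far, so this value rests on position and is given with no test. At the same distances from the end, in UTRs of over 600 nt, the share was 8.64% ± 0.579 at the summits and 13.4% ± 0.704 in the mean profile of UTRs with an end-zone peak. This difference was −4.76 ± 0.397 percentage points, negative in 3 of 3 lists (SD, n = 3). It was added after the data were seen and is given with no test. The profile was matched on distance and not on GC content. In windows of 100 nt on each side the difference of −20.9 became −1.90 percentage points, with 1 of 3 lists positive. At middle-zone summits the share was 8.74% ± 0.663 (SD, n = 3). TGTANATA, the letters that Pumilio proteins recognise, stood in 3.49% ± 0.0698 of windows at end-zone summits, in 4.02% ± 0.323 over the same zones and in 1.61% ± 0.0624 at middle-zone summits (SD, n = 3). Over all end zones it stood in 3.35% of windows. ATTTA, the core of AU-rich elements, stood in 15.96% ± 0.959 at end-zone summits against 17.3% ± 0.876 over the same zones. Runs of 6 A were at 6.09% ± 0.917 against 8.55% ± 0.689, and runs of 6 T at 12.9% ± 0.276 against 12.98% ± 0.939. ACATTCC, which pairs with the seed of the muscle microRNAs miR-1 and miR-206, stood in 0.867% ± 0.125 against 0.723% ± 0.0489. CTACCTC, which pairs with the let-7 seed, stood in 0.626% ± 0.190 against 0.603% ± 0.0449 (SD, n = 3).

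An end-zone peak of every list lay in 1 place in 689 genes. These 689 are 4.46% of the 15454 UTRs of over 300 nt, and 20.2% of the 3413 (22.1% of 15454) with an end-zone peak in any list. With reciprocal overlap of 50% the count was 315, and without the repeated pairs of fold and p it was 279. Without replicate 2 it was 1242, but fewer lists then have to share a place, so that count is not a like measure. In the median of the 689 genes the summits of the 3 lists lay within 40 nt of each other. In 215 genes they lay within 20 nt, and in 259 (37.6%) all 3 summits lay 50 to 150 nt before the end. The genes were taken for end-zone peaks of the 3 lists in 1 place, which by itself keeps the summits close. UTRs of up to 600 nt, whose end zone is cut short by the limit after the stop codon, had such a place in 2.17% of cases, those of up to 1500 nt in 5.58%, those of up to 3000 nt in 5.11% and longer ones in 4.13%. Of the UTRs with an end-zone peak, 46.1%, 51.9% and 46.0% held no other 3' UTR peak in that list. Over the 689 genes the fold enrichments of 2 lists correlated across genes with Spearman's rho of 0.60 to 0.67, and genes are not independent replicates. The library was unstranded, and in 77 of the 689 genes a summit also lay in an exon of another gene, so their reads cannot be told apart. Of these 77, only PABPC1 is named below, without values.

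Genes were ranked by the mean percentile of −log10 q among the end-zone peaks of each list, which describes the peaks and carries no test. Several named genes have values that other genes share, so their fold enrichments cannot be read as particular to the gene. In replicate 1, NOS1 and BIN1 had the same fold enrichment of 5.23 and the same −log10 q of 9.99. In replicate 2, CTDSP1, SAMD1 and GNAI2 each had a fold enrichment and −log10 q that another of the 689 genes also had. The 25 highest are described in no order of rank, and no theme among them was tested. Some of their intervals were far wider than the end zone, and only the summit places them there. Those of NF2 were 577, 687 and 1690 bp wide, and those of WBP2, with a UTR of 1035 nt, 722, 1256 and 1291 bp. In replicate 3, ENTREP3, SAMD1 and BCL3 had intervals of 1037, 684 and 645 bp, with UTRs of 577, 566 and 429 nt. Those of NIBAN2 and SERINC2 were at most 258 bp wide. CIC, a transcriptional repressor, had fold enrichments of 6.82, 6.94 and 14.3 in replicates 1, 2 and 3, the highest mean of the 25, at 9.37 ± 4.31 (SD, n = 3). Replicate 3 was the high one, while the summits lay 158, 155 and 153 nt before the end. CTDSP1, a phosphatase that acts on the tail of RNA polymerase II, was even between lists, at 7.15, 7.28 and 7.30, with summits at 106, 108 and 123 nt. SAMD1, a chromatin protein that binds unmethylated CpG islands, was at 7.94, 7.05 and 7.91, with its summit 176 nt before the end in replicate 1 and 91 and 92 nt in replicates 2 and 3. BCL3 and RELA, both of the NF-kB pathway, were at 5.11, 7.16 and 9.13 and at 3.93, 4.45 and 3.72. CBX6, a Polycomb chromobox protein, was at 4.72, 5.92 and 3.71. Its summits differed least among the 25, at 145, 144 and 144 nt before the end of a UTR of 4787 nt. MLLT6, a PHD finger protein, was at 4.07, 5.06 and 3.47, and the coactivator gene WBP2 at 4.27, 3.40 and 4.93, with summits spread over 118 nt.

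GNAI2, an inhibitory G protein subunit, was at 6.45, 6.57 and 9.85, with summits 106, 132 and 117 nt before the end. NF2, the tumour suppressor merlin of the Hippo pathway, was at 5.58, 5.06 and 4.53, with summits as far apart as 235, 113 and 257 nt. CSNK1E, a casein kinase of the circadian clock and Wnt signalling, was at 3.98, 5.00 and 5.52, with summits at 98, 106 and 96 nt. The receptor genes PLXNA1, for semaphorins, and NGFR, for neurotrophins, were at 3.17, 4.22 and 4.97 and at 2.62, 4.14 and 4.72. In NGFR replicates 1 and 2 had their summits at 115 and 120 nt, and replicate 3 had its summit at 294 nt. RABL6, a GTPase-like protein, was at 3.61, 5.03 and 7.69.

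SELENON, a selenoprotein of the endoplasmic reticulum whose loss causes a congenital myopathy, was at 3.84, 4.70 and 4.60, with summits 107, 159 and 121 nt before the end. SCN4A, the sodium channel of skeletal muscle, was at 4.05, 3.38 and 4.35, and its summits lay at 118, 120 and 123 nt. LMNB2, a nuclear lamin, had the lowest mean of the 25, at 2.62, 3.23 and 3.57. MAP4, a microtubule-binding protein, was at 3.41, 3.03 and 3.62. SH3PXD2A, a scaffold of invadopodia, has the longest UTR of the 25, with 7789 nt, and was at 4.41, 6.05 and 5.15. RBM38, an RNA-binding protein that stabilises target mRNAs, was at 4.90, 4.21 and 5.07, with summits at 111, 106 and 113 nt.

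The first by rank was UBALD2, at 4.62, 5.07 and 5.88, with summits 112, 126 and 116 nt before the end of a UTR of 793 nt. ENTREP3 was at 3.67, 4.32 and 3.78, NIBAN2 at 3.56, 5.68 and 4.64, and SERINC2 at 5.53, 8.98 and 6.05. In 15 of the 25 genes all 3 summits lay 50 to 150 nt before the end. AATAAA stood in the last 50 nt in 17 of the 25 and ATTAAA in 3.

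**Figure D5:**
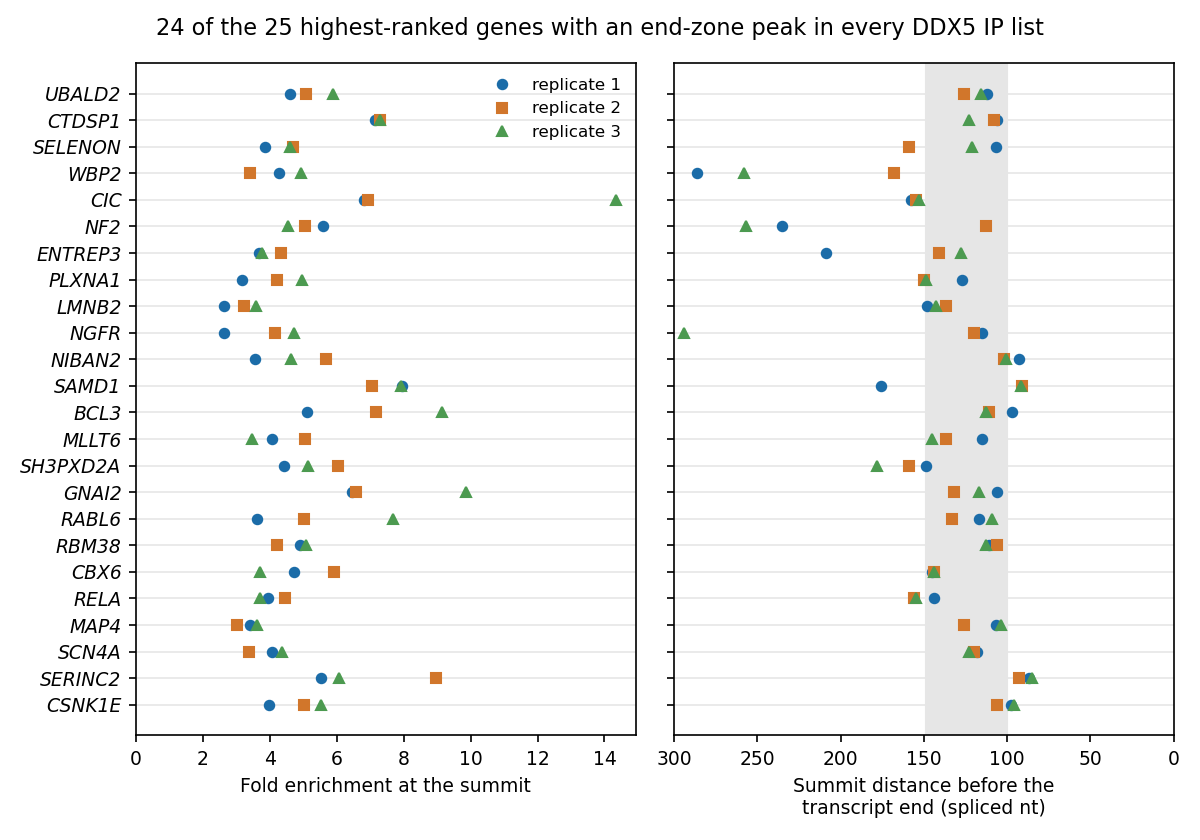
Fold enrichment at the summit (left) and spliced distance of the summit before the transcript end (right, grey band 100 to 150 nt) for 24 of the 25 highest-ranked genes. Each gene has 1 point for each DDX5 immunoprecipitate. Most summits lie at or near the band, and those of NGFR, NF2, WBP2, ENTREP3 and SAMD1 differ by over 80 nt between lists.

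The gene lists were read against 4.46% of all UTRs of over 300 nt and against 20.2% of those with an end-zone peak in any list. The lists were not matched on expression, and no test was made of them. Regulators of fusion-positive rhabdomyosarcoma and targets of PAX3-FOXO1 had an end-zone peak of every list in 8 of 37 genes with a UTR of over 300 nt (21.6%), and in 8 of the 20 with any (40%). NOS1, a neuronal nitric oxide synthase, was at 5.23, 5.83 and 5.79 and MEF2D, a partner of the myogenic factors, at 3.58, 4.68 and 3.82. SOX8, a transcription factor, was at 3.14, 3.20 and 3.48, and KDM4B, a histone demethylase, at 3.17, 3.62 and 2.66. The median of the 8 mean fold enrichments was 3.21, against 3.16 over the 689 genes.

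Lysine methyltransferases and heterochromatin proteins had 7 of 36 (19.4%), and 7 of 18 with any (38.9%), with a median of 3.61. SETD1B was at 4.69, 5.77 and 6.49 and SETD1A at 5.96, 3.99 and 5.98, both methyltransferases of histone H3. DNMT3A, a DNA methyltransferase, was at 3.94, 3.36 and 4.32. DDX5 partners and Microprocessor genes had 6 of 32 (18.8%), and 6 of 16 with any (37.5%), with a median of 2.44. The acetyltransferase gene CREBBP was at 3.11, 6.04 and 4.56, and ADAR, an enzyme that edits double-stranded RNA, at 2.41, 2.70 and 2.08. Myogenic and muscle genes had 5 of 27 (18.5%), and 5 of 17 with any (29.4%), with a median of 3.68. BIN1, which shapes the T-tubules of muscle, was at 5.23, 6.11 and 5.47 and ITGA7, a laminin receptor of muscle, at 3.76, 4.14 and 3.14, with summits at 107, 102 and 103 nt.

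Cell cycle and replication genes had 5 of 42 (11.9%), and 5 of 23 with any (21.7%), which is near the 20.2% of all UTRs with an end-zone peak, and their median was 1.97. CDKN1A, an inhibitor of cyclin-dependent kinases, was at 2.32, 1.80 and 1.78. Factors that bind 3' UTRs or decay mRNA had 5 of 51 (9.80%), and 5 of 20 with any (25%), and a median of 2.47, with MSI2 at 2.95, 2.91 and 2.51 and the helicase gene UPF1 at 2.23, 2.30 and 3.17. The factors that make 3' ends had 2 of 27 (7.41%), with a median of 2.23, and 2 of 7 with any (28.6%). These were CPSF4 at 2.24, 2.29 and 2.36 and PABPC1, where a summit also lay in another gene. Of 65 cytosolic ribosomal protein genes, 22 had a 3' UTR of over 300 nt. Of these 22, 4 had an end-zone peak in any list and 0 had one in every list. Over all UTRs of over 300 nt these shares were 22.1% and 4.46%, so the counts are too small to read as a lack of peaks.

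DDX5, PAX3 and FOXO1 did not have an end-zone peak in every list. Of all UTRs of over 300 nt, 4.46% had one in every list and 22.1% in at least 1. DDX5 (3' UTR of 1669 nt) and PAX3 (1521 nt) had no end-zone peak in any list, and PAX3 had no peak elsewhere in its 3' UTR. DDX5 had 1 stop-zone peak in replicate 1 and 1 middle-zone peak in replicate 3. FOXO1 had 2, 0 and 3 middle-zone peaks in replicates 1, 2 and 3, and 1 stop-zone peak in replicate 3. Its 3' UTR of 3382 nt is the one the fusion transcript keeps, and it had no end-zone peak in replicate 1. Replicate 2 placed a summit 221 nt before its end, with a fold enrichment of 3.17 and a −log10 q of 8.02, and replicate 3 one at 248 nt, with 1.89 and 1.49. Depth is unknown, so a peak missing from a list may lie under the limit of detection.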

How the data were processed

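Nuclear RNA bound by DDX5 was measured by RIP-seq with an unstranded kit, per the labels' protocols. The submitters' processing notes name bcl2fastq 2.20, FastQC 0.11.8, cutadapt 1.11, STAR 2.6.1d, SAMtools 1.10, MACS2 2.2.7.1 and GRCh38/hg38. Parameters and the control of the peak calls are not given in the sources used here. The deposited lists, 1 per sample, hold 34676, 32311 and 68759 rows. The deposited fold enrichment is a ratio over the caller's background, and p-value and q-value were deposited as −log10. The deposited score, a rounded form of the q-value, was left out. Sequencing depth is unknown.

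Each interval was represented by its summit with the highest −log10 q. No peak ran past a GRCh38 chromosome end. Summits were placed on 19605 canonical transcripts of GENCODE version 44 with Python 3.11.15, pandas 2.3.3 and pysam 0.24.0, and a summit in the end zones of 2 genes (16 to 34 per list) was left out of sequence and gene counts. On simulated data, all of 2880 summits planted in 1 UTR (100%) came back with their distances. Zones were compared by an exact sign-flip permutation test, two-sided, over the 3 lists, which cannot give a p below 0.25. Peaks of 1 list share a library, and lists share UTRs, so peaks are not replicates.

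The peak class and 8 gene lists (352 entries) were chosen with earlier results of these data known. Named genes were, among those with no summit in another gene's exon, the 25 highest by mean percentile of −log10 q, up to 4 per list, and DDX5, PAX3 and FOXO1. Some genes that this rule took are not reported here. Alternatives covered q under 1e-05, folds of at least 4, equal list lengths, summits in another gene's exon, shared pairs of fold and p, zone limits of 200 and 400 nt, other overlaps and windows, and each replicate left out. The share at 100 to 150 nt and the signal at matched distances were added after the data were seen.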

Additional observations from a re-analysis of the deposited data

How the results depend on the processing

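No paired analysis was possible because the peak lists used all come from DDX5 immunoprecipitates, and INPUT files were not analysed here. The density ratios, the median fold, GC content and signal differences kept their mean direction under the alternatives run. The recurrence difference turned to −0.0568 percentage points with fold enrichments of at least 4, and the cause was not tested. End-zone peaks per list averaged 1990, but 1288 with q under 1e-05, 417 with folds of at least 4 and 969 without shared pairs of fold and p. The share of 3' UTR peaks was 25.5%, 28.3% and 19.5% in that order, and 18.2% and 23.6% with limits of 200 and 400 nt. Genes with a place in every list numbered 396, 53 and 279 in that order, and 315 with reciprocal overlap of 50%. With a replicate left out they numbered 904 to 1242, the last without replicate 2, but fewer lists then have to share a place. The share at 100 to 150 nt was 45.2%, 44.6% and 44.6% in that order. The signal difference was −1.90 percentage points in windows of 100 nt, with 1 list positive. With 3 lists the sign-flip test cannot pass a threshold of 0.05.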
